A study of Mus musculus with 24 samples.

Results

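The genes described are 10 members of the circadian clock and of its immediate output, measured in mouse liver after heat shock (HS), after a diet with WY-14,643 (WY, a PPARα agonist) or after both, in wild-type animals and in PPARα-null ones. They are *Arntl* and *Clock*, the repressors *Per1*, *Per2*, *Per3* and *Cry1*, the nuclear receptors *Nr1d1* and *Nr1d2*, and the output factors *Dbp* and *Tef*. Every probe set whose annotated symbol, current or older, was one of these names was taken, which gave 12 probe sets of the 12422 that hold values, or 10 genes of 8251. The rule itself uses names and no measured value. *Cry1* had 3 probe sets and each other member had 1, and a gene with several was read from the brightest.

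The mammalian clock is a feedback loop in which ARNTL (also called BMAL1) and CLOCK bind E-box sequences and switch on the Per and Cry genes, whose products then return to the nucleus and repress ARNTL and CLOCK. A stabilising loop runs through NR1D1 and NR1D2 (REV-ERBα and REV-ERBβ), which repress *Arntl*. DBP and TEF are PAR-domain basic leucine zipper factors that bind D-box sequences and carry the rhythm to genes of detoxification and metabolism in liver. In mouse liver most of these transcripts rise and fall steeply over the day, with *Dbp* and *Nr1d1* out of phase with *Arntl*.

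Liver RNA of 24 male mice, 9 to 12 weeks old and of a mixed SV129/C57BL/6 background, was hybridised to Affymetrix U74Av2 arrays, 1 mouse per array and 3 mice in each of 8 groups. All mice ate NIH-07 chow, and 12 of them received it with WY at 500 ppm for 7 days. HS was 40 min at 42 °C, with livers taken 4 h afterwards, and the other mice were kept at room temperature. Wild-type mice formed a control, an HS, a WY and a WY+HS group (mice 1 to 12, 3 to a group in that order), and mice carrying the PPARα deletion formed the same 4 groups (mice 13 to 24). The sources used here do not give the clock time at which livers were taken, so that a shift in phase and a change in level cannot be told apart. In whole liver, fewer cells of a type and less RNA per cell cannot be told apart either.

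Values are normalized intensities, which have no absolute scale and are not compared between genes. A floor of 15.7 was set under them, and 42.9% of all values lay at it, so that a mouse at the floor has only an upper bound. The number of arrays limits the precision, and exact permutation of 3 mice against 3 could not go below p = 0.1. Array medians of the deposited values ranged from 15.2 to 40.5. *Ppara* itself, the targeted gene, read 274 to 357 in 11 wild-type mice and 103 to 210.2 in the 12 null mice, and the sources used here do not say whether its probe set lies in the deleted part. Hepatocyte markers were bright in every mouse, with summed intensities of 28162 to 31988.

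Target genes of both treatments were checked. With WY 6 of 6 PPARα targets rose in wild-type mice, beside 6.73% of all genes. In null mice 0 of 6 rose by limma, beside 0.0121% (3 of 6 had an unadjusted p under 0.05, beside 3.45% of probe sets). Of 7 heat shock genes 2 rose with HS and 7 with WY+HS in wild-type mice, beside 0.0485% and 6.22% of all genes. In null mice 3 and 1 did so, beside 3.45% and 0.0242%. At an unadjusted p under 0.05 stood 5 of the 7 with HS in wild-type mice, beside 5.35% of probe sets. In null mice 4 did so with HS and 7 with WY+HS, beside 18% and 4.91%. With WY alone 2 of the 7 rose in wild-type mice as well, so that this list does not read HS alone.

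The library labelled wild-type HS mouse 5 stood apart from the other 2 of its group and went against its label in part. *Ppara* read 181 in it, and *Hsph1*, a heat shock chaperone, read 244 against 1619.7 and 1362 in mice 4 and 6 and 157 to 250.6 in wild-type controls. Over the 7 heat shock genes, though, its summed intensity of 6036 lay above the wild-type controls (3529 to 3770) and below mice 4 and 6 (9261 and 10111). It exceeded every control for 4 of the 7. That sum also lay within the range of the wild-type mice fed WY without HS (5860 to 6789), and null HS mouse 18 summed to 5991. Its PPARα target *Cyp4a14* read 1837, between 229 to 443 in the other 5 wild-type mice without WY and 4439.5 to 5396 in the 6 wild-type mice fed WY, whereas its *Ehhadh* read 116 against 2298 to 2653 in those 6. It was the lowest of all 24 mice for 3 members and the highest for *Clock*. Each result on the 10 genes is therefore given with and without the library labelled wild-type HS mouse 5 where its absence changed a call. The members' own values were among those that set it apart. Leaving it out lowers the estimate of spread for *Nr1d1*, *Nr1d2*, *Dbp* and *Tef*. Calls that these genes gain without it follow in part from that choice and are not independent evidence.

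Sequences near the transcription start of some members are shown first, because these genes are regulated through known short elements. RefSeq windows on GRCm38.p6, from 250 bases before to 50 bases after a start, were found for 9 of the 10 members and *Per2* was not matched. The 14 windows of these 9 genes were searched on both strands for the E-box CACGTG, its variant CACGTT, the D-box TTATGTAA, the REV-ERB and ROR element TAGGTCA, the PPAR element AGGTCANAGGTCA and the heat shock element GAANNTTCNNGAA. The REV-ERB element holds the same AGGTCA as each side of the PPAR element. Capitals mark a match, and the 250 bases before the start are printed for *Dbp* and *Tef*, whose levels changed most, and for *Nr1d1* and *Per3*. For *Arntl*, 30 bases around its match are printed. They lie at chr7:45704997-45705246, plus strand (*Dbp*), chr15:81811164-81811413, plus strand (*Tef*, the second of 2 starts), chr11:98775378-98775627, minus strand (*Nr1d1*), chr4:151044666-151044915, minus strand (*Per3*) and chr7:113207529-113207558, plus strand (*Arntl*, the second of 2 starts).
Dbp: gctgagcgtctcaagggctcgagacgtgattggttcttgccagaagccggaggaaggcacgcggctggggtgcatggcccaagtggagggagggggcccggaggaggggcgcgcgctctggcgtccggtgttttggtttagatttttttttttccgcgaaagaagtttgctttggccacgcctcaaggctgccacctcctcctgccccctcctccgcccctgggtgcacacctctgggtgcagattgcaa
Tef: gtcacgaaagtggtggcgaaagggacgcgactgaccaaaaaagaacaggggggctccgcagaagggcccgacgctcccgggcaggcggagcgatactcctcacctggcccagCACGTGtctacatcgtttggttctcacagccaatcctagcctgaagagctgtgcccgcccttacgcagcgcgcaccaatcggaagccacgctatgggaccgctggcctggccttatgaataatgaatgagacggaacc
Nr1d1: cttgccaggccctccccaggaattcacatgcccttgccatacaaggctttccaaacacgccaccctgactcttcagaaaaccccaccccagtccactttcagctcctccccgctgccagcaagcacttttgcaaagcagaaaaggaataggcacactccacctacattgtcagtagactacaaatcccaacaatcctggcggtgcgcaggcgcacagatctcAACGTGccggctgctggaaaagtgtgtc
Per3: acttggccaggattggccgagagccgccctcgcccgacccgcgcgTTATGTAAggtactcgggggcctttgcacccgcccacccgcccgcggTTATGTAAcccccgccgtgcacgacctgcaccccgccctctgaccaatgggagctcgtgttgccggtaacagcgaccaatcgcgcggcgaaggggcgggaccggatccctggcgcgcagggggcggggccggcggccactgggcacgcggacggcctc
Arntl: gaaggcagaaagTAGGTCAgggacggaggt

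The E-box was found in windows of *Cry1*, *Per1* and *Tef*, where the copy shown lies 133 bases before the start, and 7.15% of all 32851 windows hold it. The variant was found in *Cry1* and in *Nr1d1*, 23 bases before the start, against 4.68% of all windows. Among the members with a window, *Per3* was the only one with an exact match to the D-box letters searched. Its copies lie at 198 and 151 bases before its start, and 0.938% of all windows hold one. Other forms of the D-box were not searched. *Arntl* was the only one of them with an exact match to the REV-ERB element, 30 bases after its start, against 2.61% of all windows. The PPAR element and the heat shock element were in none of the 14 windows, against 0.0396% and 0.603% of all windows. The *Dbp* window shown had none of the 6 motifs, and neither had that of *Nr1d2*, which is not printed. These matches describe letters in a window and no binding was measured.

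The output factors carried the clearest differences. In wild-type mice *Tef* fell with WY, and both *Dbp* and *Tef* fell with WY+HS, while in null mice the same groups overlapped their controls for both genes. *Nr1d2* was the 1 member called by a treatment in null mice, where it was higher when WY came before HS than after HS alone. In wild-type mice fed WY, 1 of the 10 members fell (*Tef*) and none rose at an adjusted p under 0.05 (limma with Benjamini-Hochberg adjustment), beside 5.19% of all probe sets that fell and 5.59% that rose. After WY+HS, 2 of 10 fell (*Dbp* and *Tef*) and none rose, beside 5.38% and 5.23%. HS alone called 0 of 10 in wild-type mice, beside 0.0403% of probe sets in either direction, and 1 of 10 had an unadjusted p under 0.05, as 5.35% of probe sets did. In null mice limma called 0 of 10 after HS, WY and WY+HS, beside 7.07%, 0.00805% and 0.0161% of probe sets, and 1, 0 and 0 had an unadjusted p under 0.05, beside 18%, 3.45% and 4.91%. The median log2 difference over the 10 members was -0.43 with WY, -0.32 with WY+HS and -0.50 with HS in wild-type mice, against 0 over all genes in each. The last was -0.16 without the library labelled wild-type HS mouse 5. In null mice it was -0.08 with WY, 0.02 with WY+HS and -0.08 with HS. The 3 treatments of a strain were set against the same 3 control mice, so that their values are not independent of each other.

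**Figure D1:**
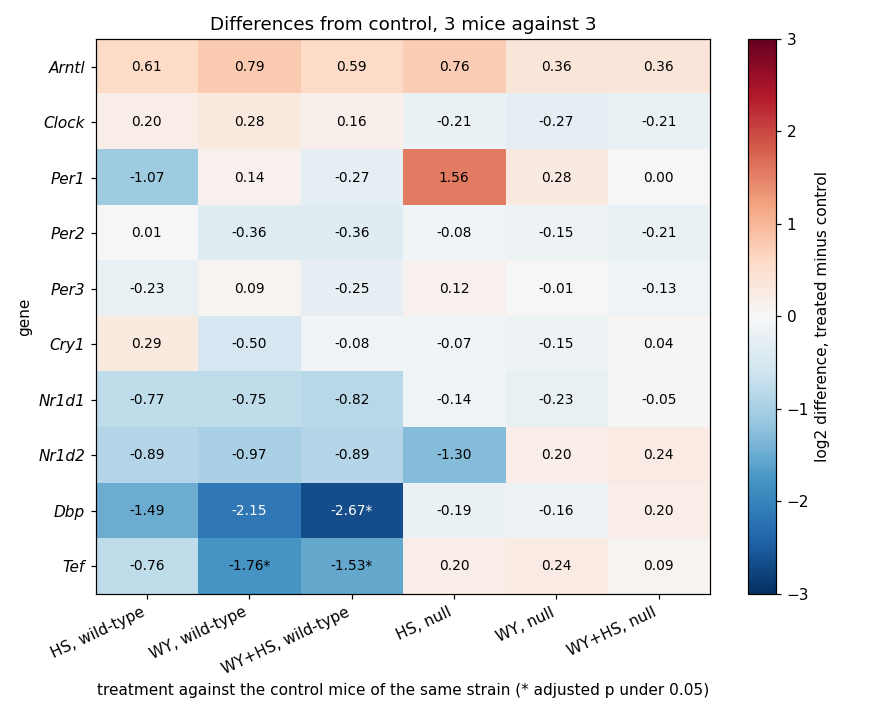
Log2 difference of each treatment from the control mice of the same strain (columns) for the 10 members (rows), 3 mice against 3, with a star where the adjusted p was under 0.05. The stars stand at *Tef* with WY (-1.76) and at *Dbp* (-2.67) and *Tef* (-1.53) with WY+HS, all in wild-type mice.

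Counted by mice, the 3 wild-type WY mice lay below all 3 controls for 5 of the 10 members (*Cry1*, *Nr1d1*, *Nr1d2*, *Dbp* and *Tef*), beside 12.6% of probe sets, and above them for *Arntl*, beside 11.5%. After WY+HS they lay below for 4 (*Nr1d1*, *Nr1d2*, *Dbp* and *Tef*), beside 11.2%, and above for *Arntl*, beside 10.3%. Both output factors and both nuclear receptors were thus among the lower members after either treatment. In null mice WY left *Nr1d2* above (2.63% of probe sets) and *Clock* below (2.66%) the controls, and WY+HS left no member separated (3.68% above and 3.56% below). Without the library labelled wild-type HS mouse 5, which entered only the shared estimate of spread here, 4 members fell with WY and the same 4 fell with WY+HS. They were *Nr1d1*, *Nr1d2*, *Dbp* and *Tef*. Of 12422 probe sets, 722 and 747 fell in these comparisons, and 11.8% and 11.6% were called in either direction.

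**Figure D2:**
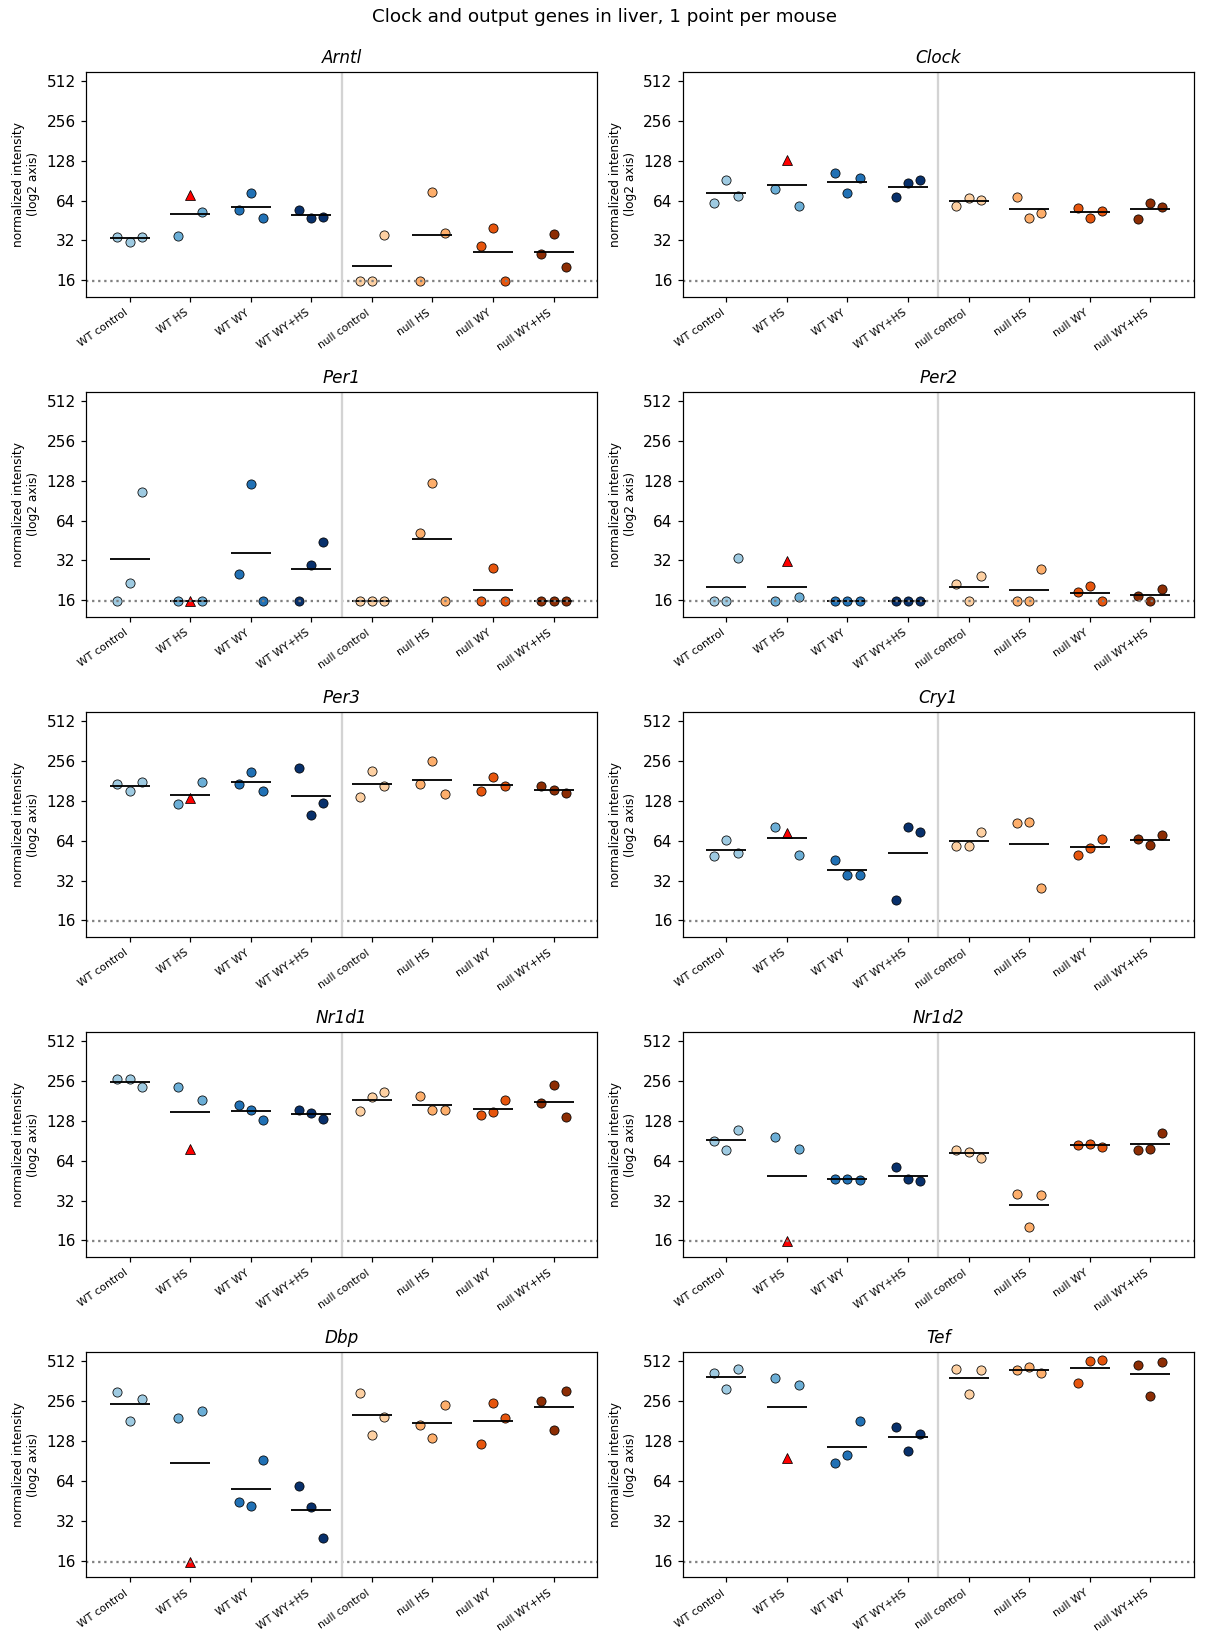
Normalized intensity (log2 axis) of each member in each of the 24 mice, by group, with 1 point per mouse, a bar at the geometric mean and a dotted line at the floor of 15.7. *Tef* and *Dbp* of the wild-type WY and WY+HS mice lie below every null mouse, and the red triangle is the library labelled wild-type HS mouse 5.

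*Tef*, a PAR bZIP output factor expressed in many tissues, had values of 421, 319 and 451 in the wild-type control mice. It read 86.8, 99.9 and 180.0 in those fed WY and 164, 107 and 144 after WY+HS. Both treated groups thus lay wholly below the controls. The mean was 122 ± 50.5 (SD, n = 3) with WY against 397 ± 69.1, and *Tef* fell 3.39-fold (log2 difference -1.76, SE 0.42, adjusted p = 0.0103 by limma). After WY+HS it fell 2.88-fold (log2 difference -1.53, SE 0.42, adjusted p = 0.025). The first call was lost without WY mouse 7 (adjusted p = 0.0552), and the second without control mouse 1 or 3 or WY+HS mouse 11 or 12 (adjusted p of 0.0566 to 0.0886). In null mice the values were 447, 292 and 439 in controls, 349.6, 514 and 523 with WY and 485, 280.1 and 504 with WY+HS. Those 9 mice overlapped across groups, and the log2 differences were 0.24 with WY (95% interval -0.65 to 1.12) and 0.09 with WY+HS (-0.80 to 0.97). Fed WY, *Tef* was 3.92-fold higher in null than in wild-type mice (adjusted p = 0.00378), and after WY+HS it was 3.00-fold higher (adjusted p = 0.0189, and 0.0709 to 0.0773 without mouse 11, 22 or 24).

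*Dbp*, the PAR bZIP factor whose transcript swings widely in rodent liver, read 302, 181 and 266 in wild-type controls. It read 44.4, 41.1 and 92.3 with WY and 59.0, 40.4 and 23.8 with WY+HS. No treated mouse reached the lowest control. The log2 difference was -2.15 with WY (SE 0.73, adjusted p = 0.0764), which did not pass, and *Dbp* fell 6.36-fold with WY+HS (-2.67, SE 0.73, adjusted p = 0.0244). Without any 1 of mice 1, 3, 11 and 12 the latter did not pass either (adjusted p of 0.0594 to 0.0898). In null mice *Dbp* read 296, 141 and 194 in controls, 121, 249 and 193 with WY and 258, 155 and 307 with WY+HS. These groups overlapped, with log2 differences of -0.16 (95% interval -1.70 to 1.39) and 0.20 (-1.35 to 1.74). After WY+HS *Dbp* was 6.00-fold higher in null than in wild-type mice (adjusted p = 0.028, and 0.0646 to 0.0967 without mouse 11, 12, 22 or 24), and with WY alone the log2 difference of 1.70 did not pass (adjusted p = 0.167). Without the library labelled wild-type HS mouse 5 the fall of *Dbp* with WY passed (adjusted p = 0.00232) and so did its strain difference under WY (adjusted p = 0.0106).

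Whether the strains differed in their response was tested by the interaction of diet and genotype. For WY the interaction of *Tef* was 2.00 on the log2 scale (adjusted p = 0.0655) and that of *Dbp* was 1.99 (adjusted p = 0.423), and 0 of 10 members passed, beside 5.13% of probe sets (1 of 10 had an unadjusted p under 0.05, beside 14.6%). For WY+HS the interaction was 2.87 for *Dbp* (adjusted p = 0.143) and 1.61 for *Tef* (adjusted p = 0.152), again 0 of 10, beside 5.34%, with 2 of 10 at an unadjusted p under 0.05 (15.3% of probe sets). Without the library labelled wild-type HS mouse 5, *Tef* (adjusted p = 0.00605) and *Nr1d2* (1.17, adjusted p = 0.0145) passed for WY, beside 6.03% of probe sets. For WY+HS, *Nr1d2* (adjusted p = 0.018), *Dbp* (0.00667) and *Tef* (0.0244) then passed, beside 6.32%. Between the strains under WY, 2 of 10 members passed with all mice, *Tef* higher and *Clock* lower in null mice, beside 6.38% of probe sets higher and 6.65% lower. After WY+HS, *Dbp* and *Tef* passed, both higher in null mice, beside 6.23%. Leaving out the library labelled wild-type HS mouse 5 made that 4 under WY (*Clock*, *Nr1d2*, *Dbp* and *Tef*, beside 13.8% of probe sets in either direction) and 3 after WY+HS (*Nr1d2*, *Dbp* and *Tef*, beside 12.7%). The strain difference of *Nr1d2*, 0.84 under WY and 0.80 after WY+HS on the log2 scale, had an adjusted p of 0.3 and 0.33 with all mice and of 0.00643 and 0.0099 without that library. In control mice 0 of 10 passed between strains by limma, beside 0.845%, with 0 at an unadjusted p under 0.05 (10.1% of probe sets).

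**Figure D3:**
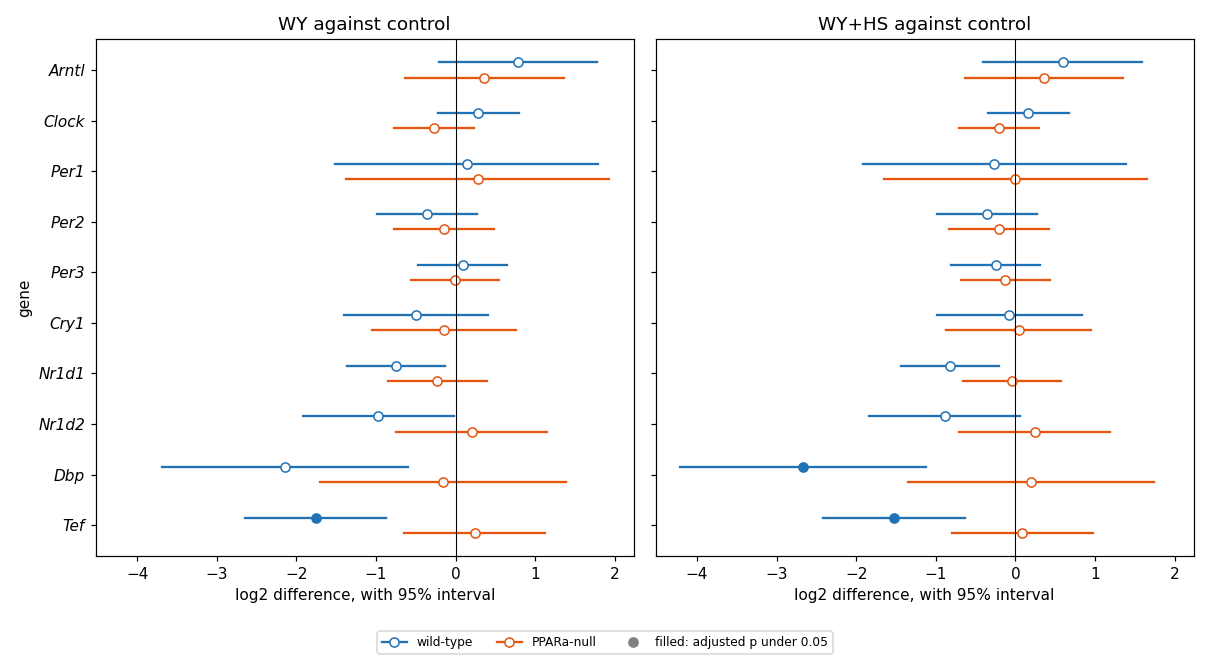
Log2 difference from control of the same strain with its 95% interval, for WY (left) and WY+HS (right), in wild-type (blue) and PPARα-null mice (orange), 3 mice against 3. The intervals of *Tef* exclude 0 in wild-type mice in both panels and span it in null mice.

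HS alone was followed by no member that passed in wild-type mice, and the lower means of *Dbp* and *Tef* there rested on 1 library. *Dbp* read 192 and 217 in mice 4 and 6 and lay at the floor in the library labelled wild-type HS mouse 5. *Tef* read 383 and 339.7 in mice 4 and 6 and 96.1 in that library. The log2 difference from control was -1.49 for *Dbp* (adjusted p = 0.866) and -0.76 for *Tef* (adjusted p = 0.937). Leaving the library out gave -0.26 and -0.12, with 0 of 10 members called, beside 0.0966% of probe sets. In null HS mice *Dbp* read 169, 135 and 239.6 and *Tef* read 442, 466 and 418. The null HS mice thus overlapped the null controls for both genes. Adding HS to the WY diet changed neither by the test, with log2 differences between WY+HS and WY of -0.52 for *Dbp* and 0.23 for *Tef* in wild-type mice and of 0.36 and -0.15 in null mice. In that comparison 0 of 10 members passed in wild-type mice (0.427% of probe sets) and 0 of 10 in null mice (0.0242%), with 0 at an unadjusted p under 0.05 in each (8.24% and 5.29% of probe sets). Set against HS alone in wild-type mice, WY+HS called 0 of 10 by limma, beside 9.68% of probe sets, with 0 at an unadjusted p under 0.05 (19.2%). That comparison called 3 without the library labelled wild-type HS mouse 5, *Nr1d2* (adjusted p = 0.0223), *Dbp* (-2.41, adjusted p = 0.00275) and *Tef* (-1.40, adjusted p = 0.00949), beside 8.82%.

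*Nr1d1*, the REV-ERBα receptor that represses *Arntl*, read 265, 267 and 231 in wild-type controls. It read 168, 156 and 131 with WY and 155, 146 and 132 with WY+HS. Every treated mouse lay below every control. The log2 differences were -0.75 (SE 0.29, adjusted p = 0.133) and -0.82 (SE 0.29, adjusted p = 0.0939), neither of which passed with all mice. Both did without the library labelled wild-type HS mouse 5 (adjusted p = 0.0133 and 0.00717). In null mice *Nr1d1* read 152, 195 and 212 in controls, 142, 149.7 and 183 with WY and 175, 239 and 136 with WY+HS, all overlapping. The null controls lay below the wild-type controls in all 3 mice (log2 difference -0.46, adjusted p = 0.697), as did 6.45% of probe sets. HS gave 232, 78.2 and 184 in wild-type mice, the middle value in the library labelled wild-type HS mouse 5, and 197, 154 and 156 in null mice. The wild-type difference of -0.77 (adjusted p = 0.748) was -0.30 without that library.

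*Nr1d2*, the REV-ERBβ receptor of the same loop, was the only member for which null HS mice lay apart from all their controls. It read 77.5, 74.3 and 66.9 in null controls and 35.7, 20.2 and 35.6 in null HS mice. Every HS mouse lay below every control, as was so for 8.75% of probe sets, with 8.86% the other way. The log2 difference of -1.30 (SE 0.45) did not pass with all mice (adjusted p = 0.098). It passed without the library labelled wild-type HS mouse 5 (adjusted p = 0.000689, beside 7.7% of probe sets called). In null mice given WY before HS, *Nr1d2* read 76.6, 79.0 and 105, and with WY alone 84.4, 85.6 and 81.1. Between null WY+HS and null HS mice it rose 2.91-fold (log2 difference 1.54, SE 0.45, adjusted p = 0.0343), the only member of 10 called there, beside 6.05% of probe sets that rose and 5.14% that fell. That call was lost without any 1 of null mice 16, 17, 22, 23 and 24, with adjusted p of 0.0592 to 0.158.

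In wild-type mice *Nr1d2* read 90.5, 77.5 and 109 in controls, 47.0, 46.9 and 46.2 with WY and 57.4, 46.7 and 45.1 with WY+HS. Both groups lay below the controls, and the 3 WY mice lay within 1 unit of each other. The log2 differences were -0.97 (SE 0.45, adjusted p = 0.237) with WY and -0.89 (SE 0.45, adjusted p = 0.273) with WY+HS. Without the library labelled wild-type HS mouse 5 both passed (adjusted p = 0.00258 and 0.00493). After HS, wild-type mice 4 and 6 read 97.6 and 78.3, within the control range, and the library labelled wild-type HS mouse 5 lay at the floor. The strain difference in the HS response was -0.41 on the log2 scale (adjusted p = 1), and it was -1.24 without that library (adjusted p = 0.0497, beside 1.18% of probe sets called). Between strains after HS 0 of 10 members passed by limma, beside 14.8% of probe sets, with 2 at an unadjusted p under 0.05 (24.9%). In the strain difference of the HS response 0 of 10 passed, beside 1.62%, with 1 at an unadjusted p under 0.05 (12.7%). Between null HS and wild-type HS mice *Nr1d2* differed by -0.74 (adjusted p = 0.348) and, without that library, by -1.57 (adjusted p = 0.000225, beside 12.5%).

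The null HS mice also differed in cell type markers, whose part in the *Nr1d2* values was not tested. After HS in null mice 3.45% of all genes rose and 4.5% fell. Of 5 stellate cell markers on the array, 4 rose there (*Des*, *Col1a1*, *Col3a1* and *Pdgfrb*). The list's summed intensity was 1441 to 1990 against 997 to 1258 in null controls. Of 5 endothelial markers, 2 rose (*Cdh5* and *Vwf*), with sums of 237 to 243 against 146 to 181. Of 5 neutrophil markers, *S100a8* and *S100a9* rose, and *S100a9* lay at the floor in all 3 null controls. Of 7 hepatocyte markers 1 fell, with 3 at an unadjusted p under 0.05, beside 18% of probe sets. Between null WY+HS and null HS mice 3 stellate, 1 endothelial and 2 neutrophil markers fell, beside 5.61% of all genes. Summed endothelial markers were not lower, at 238 to 253 in null WY+HS mice against 237 to 243 in null HS mice. Summed muscle markers read 820 and 672 in null HS mice 16 and 17 and 109 in mouse 18, against 100.2 to 123 in null controls. In wild-type mice 6.12% of all genes fell with WY and 6.34% with WY+HS, and 6.73% and 6.22% rose. In the wild-type WY and WY+HS mice, Kupffer cell markers summed to 333 to 535 against 558 to 675 in controls. Stellate cell markers summed to 691 to 890 against 1022 to 1289, and 1 of 5 fell in each comparison (*Dcn*). Endothelial markers summed to 136 to 166 with WY and 161 to 233 with WY+HS against 226 to 279 in controls, and 1 of 5 fell with WY (*Kdr*). Hepatocyte markers summed to 28162 to 29421 against 31195 to 31498 there, and 3 of 7 fell (*Ttr*, *Fga* and *Cps1*). Of 5 lymphocyte markers *Cd79a* fell with WY, and *Cd3e*, *Cd3g* and *Ptprc* lay at the floor on all 24 arrays. The cholangiocyte markers *Krt7* and *Epcam* lay at the floor on all 24 arrays too. In these wild-type comparisons 0 of 2 red blood cell, 0 of 8 Kupffer cell and 0 of 5 muscle markers passed by limma. An unadjusted p under 0.05 was reached by 1, 1 and 0 in each, beside 19.5% of probe sets with WY and 20.1% with WY+HS. The part of these shifts in the values of *Dbp*, *Tef*, *Nr1d1* and *Nr1d2* was not tested.

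**Figure D4:**
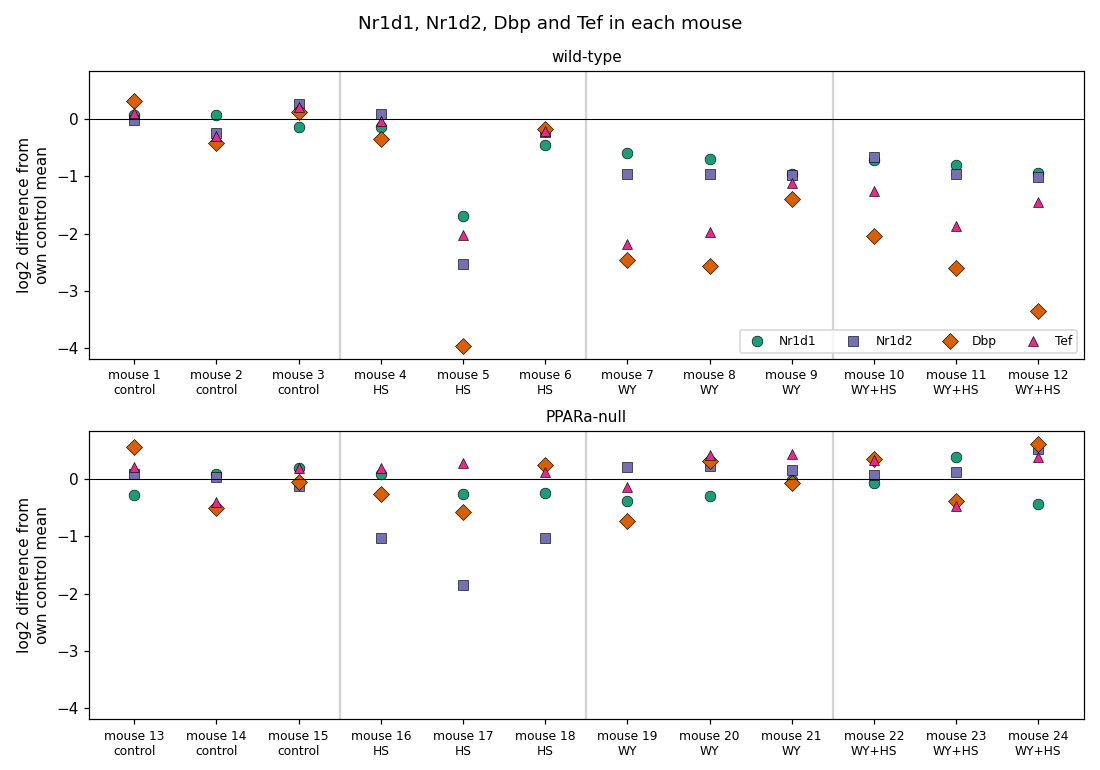
Log2 difference of *Nr1d1*, *Nr1d2*, *Dbp* and *Tef* in each mouse from the mean of its strain's control mice, wild-type above and PPARα-null below. All 6 wild-type mice with WY or WY+HS and the library labelled wild-type HS mouse 5 lie below 0 for all 4 genes, and the null HS mice lie below it by more than 1 for *Nr1d2* alone.

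Under the settings used throughout, *Arntl* and *Clock*, the activating pair, gave a call in 1 comparison, that of *Clock* between strains under WY. *Arntl* read 34.1, 31.2 and 33.9 in wild-type controls, 54.5, 72.5 and 46.9 with WY and 54.6, 47.0 and 48.1 with WY+HS. All 6 treated mice lay above the controls, yet the log2 differences of 0.79 (SE 0.47, adjusted p = 0.415) and 0.59 (SE 0.47, adjusted p = 0.608) did not pass. In a limma fit of only the arrays compared, the difference with WY+HS passed (adjusted p = 0.0267). HS gave 34.7, 70.1 and 52.7, also all above the controls (log2 difference 0.61, adjusted p = 1), as 4.17% of probe sets were. In null mice *Arntl* lay at the floor in 2 of 3 controls, 1 of 3 HS mice and 1 of 3 WY mice, and null HS mouse 17 had the highest value of all 24 mice. The null mice above the floor read 34.9 in the controls, 74.2 and 36.1 after HS, 29.1 and 39.9 with WY and 25.2, 35.8 and 20.1 with WY+HS. The null WY and WY+HS groups lay wholly below the wild-type ones (log2 differences of -1.11, adjusted p = 0.158, and -0.92, adjusted p = 0.27), as 11.7% and 9.92% of probe sets did. Without scaling, the strain difference under WY passed by limma (-1.53, adjusted p = 0.0462).

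*Clock*, the partner of ARNTL, read 61.1, 91.7 and 69.6 in wild-type controls and 102, 72.9 and 94.3 with WY. The groups overlapped (log2 difference 0.28, adjusted p = 0.692). Null mice read 58.6, 66.6 and 64.9 in controls and 56.4, 47.6 and 53.2 with WY. Between strains under WY, *Clock* was 1.70-fold lower in null mice (log2 difference -0.77, SE 0.24, adjusted p = 0.0432), with no overlap, as for 11.7% of probe sets in that direction. That call was kept in 11 of 24 fits that each left out 1 mouse, and the adjusted p ran from 0.0105 without the library labelled wild-type HS mouse 5 to 0.157 without wild-type WY mouse 7. After WY+HS, *Clock* was at 68.4, 87.2 and 91.3 in the wild-type group, against 46.7, 61.6 and 57.3 in the null group, again with no overlap, but the log2 difference of -0.57 did not pass (adjusted p = 0.156). HS gave 78.6, 130.1 and 57.8 in wild-type mice, with the highest value of all 24 in the library labelled wild-type HS mouse 5, and 68.4, 47.0 and 51.3 in null mice.

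The repressors gave 0 calls by limma in the 17 comparisons, with 1 of 68 tests at an unadjusted p under 0.05 (*Per1* in the strain difference of the HS response). Under other settings *Per2* passed with WY in wild-type mice (floor at the 20th percentile, or an inverse hyperbolic sine scale) and for WY+HS against HS there (20th percentile floor), and *Per3* passed for HS on the WY diet in wild-type mice (no scaling). *Per1*, which also responds quickly to glucocorticoids and to stress, was above the floor on 9 of 24 arrays. It read up to 105 in wild-type controls, 120.0 in wild-type WY mice and 123 in null HS mice, each time in 1 mouse. It lay at the floor in all 3 mice of the wild-type HS, null control and null WY+HS groups. The log2 difference after HS was -1.07 in wild-type mice (adjusted p = 1) and 1.56 in null mice (adjusted p = 0.303), where all controls lay at the floor, so that its size depends on the floor. The 2 null HS mice with *Per1* above the floor, at 51.7 and 123, were mice 16 and 17, with muscle marker sums of 820 and 672. Wild-type control mouse 1 had the highest sum of all (911) and *Per1* at the floor. The part of muscle RNA in the *Per1* values was not tested.

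*Per2* was above the floor on 10 of 24 arrays and never exceeded 33.4. It lay at the floor in all 6 wild-type mice fed WY, with or without HS, and above it in 3 of the 6 other wild-type mice and 7 of the 12 null mice. *Per3*, the family member with D-box matches above, was above the floor in all mice and ranged from 100.2 to 255. Its group means lay between 144 and 191 and no group separated from its control. *Cry1* was read from a probe set whose name marks probes that may also match related sequences, and its other 2 probe sets lay at the floor on all 24 arrays. It read 49.0, 64.4 and 51.5 in wild-type controls and 46.0, 35.2 and 35.5 with WY, below every control. Its log2 difference of -0.50 did not pass (adjusted p = 0.709), and after WY+HS it spread from 22.9 to 81.0.

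Across the 24 mice *Dbp* and *Tef* followed each other most closely of all member pairs (Pearson r = 0.92 of log2 values, a description over mice that share treatments and the library labelled wild-type HS mouse 5). *Nr1d1* and *Nr1d2* followed *Dbp* at r = 0.61 and 0.64. *Clock* ran opposite to *Tef* (r = -0.78) and to *Dbp* (r = -0.74), and *Arntl* did so too (r = -0.62 and -0.61). Averaged over *Nr1d1*, *Nr1d2*, *Dbp* and *Tef*, the 6 wild-type mice with WY or WY+HS had a mean log2 intensity of 6.07 to 6.65. The library labelled wild-type HS mouse 5 stood below them at 5.21, and the other 17 mice lay between 6.89 and 7.88. These 4 genes were the members for which all 6 mice lay below every wild-type control. The separation of their average follows from that and is not independent evidence. Among 4947 genes above the floor on at least 18 arrays, those most like *Dbp* were *Ghr* (the growth hormone receptor, r = 0.93), *Mxd4* (0.91) and *Mug-ps1* (0.90). Those most like *Tef* were *Yy1* (0.92), *Mug-ps1* (0.91) and *Upp2* (uridine phosphorylase of liver, 0.91). *Nr1d1* was most like *Ulk1* (0.78) and *Nr1d2* most like *Gsto1* (0.89).

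The partners of the clock were also counted, from a list of 21 of which 14 were on the array and 12 above the floor in some mouse. With WY in wild-type mice 1 of 14 fell (*Id2*) and none rose, beside 6.12% and 6.73% of all genes, and the list's median log2 difference was -0.32 against 0 over all genes. *Id2*, an inhibitor of basic helix-loop-helix factors that can bind CLOCK and ARNTL, read 853, 916 and 587 in controls and 331, 241 and 172 with WY. It fell by 1.69 on the log2 scale (SE 0.35, adjusted p = 0.00397) with no overlap. With WY+HS 0 of the 14 passed by limma, beside 6.34% of genes that fell and 6.22% that rose. An unadjusted p under 0.05 was reached by 4, beside 20.1% of probe sets, and *Id2* read 406, 339 and 386. *Id2* passed there too without the library labelled wild-type HS mouse 5. Under WY, 3 of 14 were higher in null than in wild-type mice (*Bhlhe40*, 1.17, adjusted p = 0.0226, *Id2*, 1.18, adjusted p = 0.0337, and *Wdr5*, a subunit of histone methyltransferase complexes, 1.08, adjusted p = 0.0161) and none lower, beside 7.31% of genes higher. *Bhlhe40* (DEC1) is an E-box repressor, and it read 85.6, 119 and 111 in wild-type against 173, 264 and 285 in null mice. The same 3 were higher in null mice after WY+HS, beside 7.32% of genes. After HS in null mice 0 of 14 passed by limma, beside 3.45% of genes that rose and 4.5% that fell. An unadjusted p under 0.05 was reached by 2, beside 18% of probe sets. With WY before HS *Rora*, the activator that shares the REV-ERB element, rose by 0.71 on the log2 scale over null HS mice (adjusted p = 0.0105). It was the 1 of 14 called there, beside 7.03% of genes that rose.

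Of 22 genes known to be rhythmic or clock-driven in liver, 18 were on the array. In wild-type mice with WY, 1 rose (*Cdkn1a*) and 2 fell (*Thrsp* and *Cyp2b10*), and with WY+HS 1 rose (*Cdkn1a*) and 2 fell (*Slc2a2* and *Thrsp*). Over all genes 6.73% rose and 6.12% fell with WY, and 6.22% and 6.34% with WY+HS. The list's medians were -0.20 and -0.18, against 0 over all genes. *Cdkn1a*, the cell cycle inhibitor p21, which NR1D1 represses in mouse liver, read at the floor, 19.6 and the floor in controls. It read 85.6, 116 and 82.0 with WY (log2 difference 2.46, adjusted p = 0.0131) and 149.9, 221 and 212 with WY+HS (3.50, adjusted p = 0.000804). No treated mouse overlapped the controls, whose level is an upper bound, so that the size of both differences depends on the floor. The library labelled wild-type HS mouse 5 read 162, and all 3 null WY mice read below every wild-type WY mouse (log2 difference -2.19, adjusted p = 0.0229). *Thrsp*, a lipogenic gene, fell by 1.75 (adjusted p = 0.0157) and by 1.52 (adjusted p = 0.0362) on the log2 scale. *Upp2* had a log2 difference of -1.36 with WY (adjusted p = 0.0919), and it fell without the library labelled wild-type HS mouse 5. In null mice WY and WY+HS called 0 of 18 by limma, beside 0.0121% and 0.0242% of genes that rose and none that fell. An unadjusted p under 0.05 was reached by 2 and 1, beside 3.45% and 4.91% of probe sets. After HS 1 of 18 rose, *Noct*, beside 3.45% of genes that rose and 4.5% that fell.

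*Noct*, the rhythmic nocturnin gene, read 379, 330.2 and 481 in null controls and 918, 889 and 779.8 in null HS mice. The groups did not overlap and *Noct* rose by 1.13 on the log2 scale (SE 0.18, adjusted p = 0.00117). In null mice given WY before HS it read 398, 296 and 291, and between null WY+HS and null HS mice it fell (log2 difference -1.40, adjusted p = 0.000131). In wild-type mice it read 237, 334 and 192 in controls and 307, 358 and 295 after HS, which overlapped. Its probe set, too, is marked as one whose probes may match related sequences.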

How the data were processed

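The authors deposited 1 intensity per probe set and array for Affymetrix U74Av2 arrays, 1 array per mouse. The table of 12488 probe sets held no values for 66, and 24.1% of its intensities were at or below 0, as happens after background subtraction. The methods name Rosetta Resolver, and the sources used here give neither the summary method nor the scaling behind these intensities.

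The intensities were quantile normalized here, given a floor of 15.7 (the size of the 10th percentile) and taken to log2. All 24 arrays entered 1 limma fit (limma 3.58.1, R 4.3.3) with 8 group means, 16 residual degrees of freedom and Benjamini-Hochberg adjustment over 12422 probe sets. The fit was tested on simulated data. A member was called at an adjusted p under 0.05. Symbols came from the platform annotation, updated through RefSeq, with 10833 probe sets of 1 symbol, 396 of several and 1193 of none.

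All 10 members were described, and of the other lists the genes past the threshold were counted and up to 4 with the smallest adjusted p were named, so that others named by their role were chosen after their values were seen. The 3 genes most correlated with a member were found among genes above the floor on at least 18 arrays. Members and lists were chosen with earlier results of these data known. Of the 17 comparisons, 4 (the strains under WY and under WY+HS, WY+HS against HS in wild-type mice, and the interaction of WY+HS with genotype) were added after the values were seen.

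Alternatives were scaling to a common median, no scaling, floors at the 5th and 20th percentiles, an inverse hyperbolic sine without a floor, array weights, a trended and robust fit, a filter on dim probe sets, the mean of a gene's probe sets, a fit of only the arrays compared, the methods' test (ANOVA with Benjamini-Hochberg adjustment, then Scheffé) and leaving out each mouse.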

Additional observations from a re-analysis of the deposited data

How the results depend on the processing

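No paired analysis was possible because the mouse numbers run from 1 to 24 and no number occurs in more than 1 group. Each of 17 counts of members called was recomputed under 11 alternatives, 4 of the comparisons having been added after the values were seen; 153 counts were within 1.5 times the first one and 34 were not. For WY in wild-type mice the count of 1 became 0 without scaling and with the methods' test, 2 with the 20th percentile floor, the inverse hyperbolic sine, the dim filter or only the arrays compared (there *Nr1d1* and *Nr1d2*, with *Tef* lost at an adjusted p of 0.0597), 3 with the 5th percentile floor and 4 with array weights. For WY+HS there, 2 became 4 with only the arrays compared and 0 with the methods' test. Between null WY+HS and null HS mice, 1 became 0 without scaling, with the 20th percentile floor, with only the arrays compared and with the methods' test. Between strains under WY, 2 became 1 with a common median, no scaling, the trended fit and the methods' test. That 1 was *Arntl* without scaling, where *Tef* and *Clock* were both lost (adjusted p = 0.053 by limma for each), and *Tef* in the other settings. After WY+HS 2 became 0 without scaling, with only the arrays compared and with the methods' test. Counts of 0 became 1 for HS in null mice (5th percentile floor), HS on the WY diet in wild-type mice (no scaling) and strains after HS (5th percentile floor, array weights). The WY interaction became 1 with the inverse hyperbolic sine, array weights or the dim filter and 2 with only the arrays compared, and the WY+HS interaction 1 with array weights and 2 with only the arrays compared. WY+HS against HS in wild-type mice became 1 without scaling or with the 20th percentile floor and 2 with array weights.

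Leaving out 1 mouse gave 0 to 4 for WY (0 without mouse 7) and 0 to 4 for WY+HS in wild-type mice (0 without mouse 1, 3, 11 or 12), and 0 to 1 between null WY+HS and null HS mice (0 without mouse 16, 17, 22, 23 or 24). It gave 1 to 4 between strains under WY and 0 to 3 after WY+HS (0 without mouse 11, 22 or 24). It gave 0 to 1 for HS in null mice, strains after HS and the HS interaction, 0 to 2 for the WY interaction, and 0 to 3 for the WY+HS interaction and for WY+HS against HS in wild-type mice. Each of these highest counts was reached without the library labelled wild-type HS mouse 5. The call of *Tef* with WY was kept in 23 of 24 such fits, those of *Dbp* and *Tef* with WY+HS in 20 each, and that of *Nr1d2* in 19. The 1 reversed value was *Dbp* between strains after HS, 1.02 with all mice, -0.21 without that library and up to 1.68 without another mouse (none of these passed). By the methods' test, the adjusted ANOVA p was 0.00487 for *Tef* and 0.0513 for *Dbp*. In wild-type mice Scheffé's p for *Tef* was 0.0644 with WY and 0.146 with WY+HS. For *Dbp* it was 0.356 and 0.143. The causes were not tested. Low members such as *Per1*, *Per2* and *Arntl* are limited by the floor, and 3 mice a group limit all calls.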

Other observations

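Genes of the immediate-early response, which switch on within minutes to hours of a stimulus, differed after WY+HS in wild-type mice. Of 11 on the array 3 rose and none fell, beside 6.22% of genes that rose and 6.34% that fell. *Atf3*, a stress-induced bZIP factor, read 650.3, 925 and 483 in wild-type WY+HS mice against 18.2 to 35.9 in wild-type controls and 36.9, 99.9 and 32.7 in null WY+HS mice. It rose 26.2-fold (log2 difference 4.71, SE 0.36, adjusted p = 1.17e-07), and the strain difference in that response was -4.19 on the log2 scale (adjusted p = 6.26e-05). The other genes that rose were *Egr1* (1.30, adjusted p = 0.0441) and *Btg2* (1.93, adjusted p = 0.0385), and *Btg2* rose with WY alone as well (2.05, adjusted p = 0.0277). *Ier2* read 67.1, 65.5 and 71.1 with WY against 163 to 179.6 in wild-type controls, and it fell (-1.34, adjusted p = 6.27e-05). The probe set of *Atf3* is marked as one whose probes may match related sequences.

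Of 14 genes known to respond to glucocorticoids, 2 fell with WY in wild-type mice, the metallothioneins *Mt1* (-1.73, adjusted p = 0.00981) and *Mt2* (-1.49, adjusted p = 0.0121), and none rose, beside 6.12% of genes that fell and 6.73% that rose. With WY+HS 0 of 14 passed by limma there, beside 6.34% of genes that fell and 6.22% that rose. An unadjusted p under 0.05 was reached by 0, beside 20.1% of probe sets. After HS in null mice *Mt1* rose (1.52, adjusted p = 0.0319), from 1749.6 to 2312 in controls to 4405 to 6929. It was the only gene of the 14 called, beside 3.45% of genes that rose and 4.5% that fell.

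*Cyp7a1*, the rate-limiting enzyme of bile acid synthesis and a rhythmic gene, read 36.4 and 38.9 and lay at the floor in 1 of 3 wild-type WY mice, against 42.6 to 120.5 in wild-type controls. In null mice it read 141, 62.9 and 56.9 with WY, against 42.6, 21.2 and the floor in controls. The strain difference in the WY response was 3.20 on the log2 scale (SE 0.74, adjusted p = 0.0156), while neither strain's own difference passed (-1.48, adjusted p = 0.0935, and 1.72, adjusted p = 0.73).

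*Rgs16*, a rhythmic regulator of G protein signalling, varied widely within null groups. Null mice 13 (control), 16 and 17 (HS) and 19 (WY) read 108, 176, 172 and 94.6, and the other 8 null mice read 490.0 to 1817. The same 4 mice had the lowest *Slc2a2* (the hepatic glucose transporter) of the 12 null mice, at 445, 503, 442 and 639 against 703 to 1097. Wild-type WY and WY+HS mice read 65.2 to 211 for *Rgs16*, below all wild-type controls (297 to 611), yet the differences of -1.88 and -2.29 did not pass (adjusted p = 0.46 and 0.29).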
